A study of Mus musculus with 8 samples.

Results

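The regions described here are the 699 strongest stretches of open chromatin that lay away from gene ends in resting mouse natural killer (NK) cells, out of 55946 regions found in at least 1 of 8 libraries and 34461 found in all 8. NK cells are innate lymphocytes that kill infected or transformed cells. Open chromatin was mapped by ATAC-seq, in which a transposase cuts and tags accessible DNA. Each library came from 200000 NK cells of 1 mouse, sorted from the spleen as CD49b-positive, CD3e-negative cells under steady-state conditions. The 4 wild-type (WT) mice carried unaltered HSF1, the master regulator of the heat shock response. The 4 mutant (MUT) mice, labelled HSF1-S303/7A, carried HSF1 with alanine in place of serine at residues 303 and 307, and the labels name no restriction of the change to a tissue or cell type. Neither the strain nor the age or sex of the mice is stated in the labels. Any other difference between the 4 WT and the 4 MUT mice cannot be told apart from the genotype.

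Peaks of the 8 lists were merged into regions where they overlapped by 1 bp. Each deposited peak has a score, which was turned into a percentile within its own list, and a region took its highest percentile in each list. A region was chosen when all 8 lists had a peak in it, its mean percentile was 95 or more, and its nearest protein-coding gene end was more than 1 kb and at most 50 kb away on mm10. Of the 2046 regions in all 8 lists with a mean percentile of 95 or more, 1113 were within 1 kb of a gene end, 234 were beyond 50 kb and 699 were kept. These 699 are called the strong distal regions below. The other 17351 regions that were in all 8 lists at the same distances, called the other distal regions, serve for comparison. The regions were therefore chosen by score percentile, presence in the lists and distance, and these are given only as a description.

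Open regions away from gene ends include enhancers, which bind transcription factors and act on promoters at a distance, and insulator sites bound by CTCF, which anchor chromatin loops. They can also be promoters, because many genes have additional transcript starts inside their annotated span. In NK cells, factors of the ETS, RUNX and T-box families are known to bind at distal sites of lineage genes. Distance alone does not show which gene a distal region acts on, so a gene name below is that of the nearest gene end and nothing more.

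A number of strong distal regions held annotated transcript starts, and sequences around these starts can be shown. Whether the starts are used in these cells was not tested. Of the 699 regions, 93 (13.3%) held at least 1 annotated start of a protein-coding or long non-coding RNA (lncRNA) gene in the RefSeq promoter table (GRCm38.p6). The 4 windows below run from 250 bases before to 50 bases after such a start, on the strand of the gene, and lie wholly inside a strong distal region. They are shown because each is a start of a protein-coding gene well inside the gene's annotated span. The distance rule allowed only inner starts of protein-coding genes, so an inner position is no finding. Capitals mark matches to the motifs listed further on.
Abhd18, chr3:40894009-40894308, plus strand: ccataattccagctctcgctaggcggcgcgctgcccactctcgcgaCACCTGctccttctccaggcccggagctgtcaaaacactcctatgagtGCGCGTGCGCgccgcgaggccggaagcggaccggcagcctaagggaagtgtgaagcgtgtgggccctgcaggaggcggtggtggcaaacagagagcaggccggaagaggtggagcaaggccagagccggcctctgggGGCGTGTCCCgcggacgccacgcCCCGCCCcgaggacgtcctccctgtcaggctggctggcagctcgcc
Smarcal1, chr1:72583001-72583300, plus strand: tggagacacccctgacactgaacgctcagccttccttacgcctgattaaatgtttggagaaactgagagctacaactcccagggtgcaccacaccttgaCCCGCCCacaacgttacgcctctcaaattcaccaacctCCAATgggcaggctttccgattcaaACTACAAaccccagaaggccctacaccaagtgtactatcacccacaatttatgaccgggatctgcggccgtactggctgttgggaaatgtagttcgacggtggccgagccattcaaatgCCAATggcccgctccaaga
Psma6, chr12:55398575-55398874, plus strand: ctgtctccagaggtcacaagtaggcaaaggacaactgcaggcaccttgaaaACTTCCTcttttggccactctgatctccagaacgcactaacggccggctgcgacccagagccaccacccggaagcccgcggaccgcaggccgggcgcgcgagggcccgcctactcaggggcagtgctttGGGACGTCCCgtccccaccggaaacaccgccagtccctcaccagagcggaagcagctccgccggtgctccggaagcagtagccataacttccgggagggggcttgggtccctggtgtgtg
Rabgap1, chr2:37452004-37452303, plus strand: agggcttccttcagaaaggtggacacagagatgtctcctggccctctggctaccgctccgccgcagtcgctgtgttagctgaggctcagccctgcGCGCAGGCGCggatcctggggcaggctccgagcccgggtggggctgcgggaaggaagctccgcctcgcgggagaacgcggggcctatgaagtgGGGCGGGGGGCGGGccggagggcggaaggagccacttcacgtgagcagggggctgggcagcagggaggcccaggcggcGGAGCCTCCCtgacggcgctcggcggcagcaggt
The Abhd18 window (69.3% G and C, 29 CpG dinucleotides) holds 1 match each to the NRF1, SP/KLF, NF-kB and ZEB E-box motifs. The Smarcal1 window (53.0% G and C, 13 CpG), of a gene for a DNA-annealing helicase of the replication stress response, holds 2 NF-Y matches, 1 ZNF143 match and 1 SP/KLF match. The Psma6 window (65.0% G and C, 22 CpG), of a gene for an alpha subunit of the 20S proteasome, holds 1 ETS match and 1 NF-kB match. The Rabgap1 window (72.0% G and C, 27 CpG), of a gene for a Rab GTPase-activating protein, holds 2 SP/KLF matches, 1 NRF1 match and 1 NF-kB match. A match is a description of the letters, not evidence of binding.

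Starts inside strong distal regions numbered 112, from 101 genes, with 81 starts of protein-coding and 31 of lncRNA genes. In all, 72 regions held a protein-coding start, 29 an lncRNA start and 8 held starts on both strands. Among the other distal regions 1209 of 17351 (6.97%) held a start. The share was 5.07% of regions below percentile 25, 3.65% from 25 to 50, 6.83% from 50 to 75 and 13.6% from 75 to 95, so the strong distal regions stood level with the band just beneath them. The starts sat near the middle of their regions, with a median of 16.2 bp downstream of the middle and a middle 50% from -69.1 to 92.5 bp. A start lay downstream of the middle in 60 of 112 cases. When a start within 250 bp of the region also counted, 94 strong distal regions (13.4%) had one, against 1349 (7.77%) of the others.

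**Figure D1:**
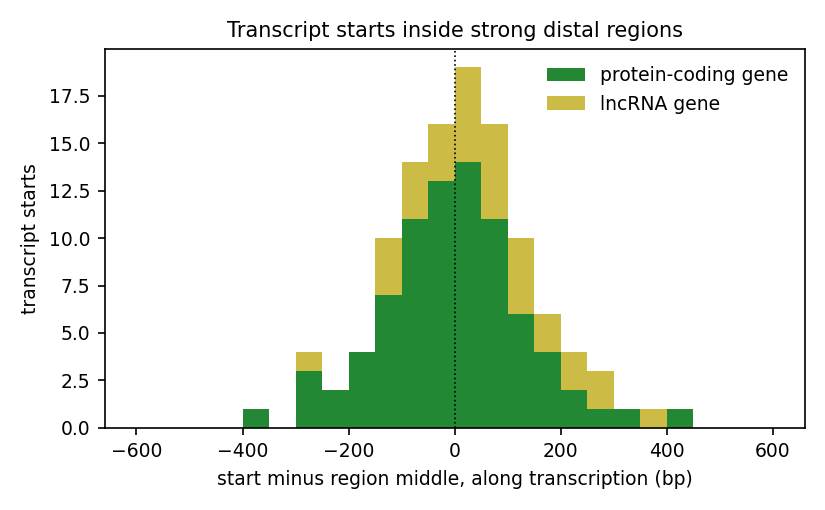
Position of the 112 annotated transcript starts inside strong distal regions, as the distance in bp from the middle of the region along the direction of transcription (horizontal) and the number of starts per 50 bp (vertical). Starts of protein-coding (81) and lncRNA genes (31) are stacked, and both pile up around the middle, with a median of 16.2 bp.

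For most of these genes the outer start, the end of the gene model where its longest annotated span begins, had no called peak. Of the 72 strong distal regions with a protein-coding start, 56 (77.8%) belonged to a gene without a peak within 1 kb of its outer start in any of the 8 lists, and 14 (19.4%) to a gene with one in all 8. Among the 867 other distal regions with a protein-coding start, the shares were 57.3% and 36.6%. The inner starts lay between 1290 and 74052 bp from the outer start, with a median of 6979 bp. Regions within 1 kb of a gene end were left out, which bounds the lowest distance. A peak that was not called is not the same as closed chromatin, since the depth of the libraries is unknown.

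Genes of several basic cell functions were among these starts; those named here were chosen after their values were seen. Smn1 (chr13:100124674-100125212), which encodes the survival motor neuron protein of snRNP assembly, had its inner start 1650 bp from the outer one, where 0 of 8 lists had a peak. The same held for Rpl22, a large ribosomal subunit protein gene (1290 bp, chr4:152325524-152326436), and for Ybx1, which encodes an RNA- and DNA-binding cold shock domain protein (1752 bp, chr4:119294362-119295062). It held as well for Trp53bp1, a DNA double-strand break repair gene (24947 bp), Mdm4, an inhibitor of p53 (5171 bp), Nfyc, a subunit of the CCAAT-binding factor NF-Y (15866 bp), and Brd3, a BET bromodomain gene (32259 bp). Psma6 had its inner start 14603 bp from the outer one, Smarcal1 46556 bp and Abhd18 23164 bp, again with 0 of 8 lists. Lymphocyte genes were among them too: Pstpip1, a cytoskeletal adaptor of haematopoietic cells (11531 bp, 0 of 8), Nlrc3, an inhibitory NLR protein gene (2385 bp, 0 of 8), and Fcrl6, an Fc receptor-like gene (15771 bp, 4 of 8). At Rabgap1, Araf and Rps6ka1, the last 2 encoding kinases of the MAPK pathway, 8 of 8 lists had a peak within 1 kb of the outer start. The outer starts lay 8991, 50836 and 14762 bp from the inner ones.

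Each motif was searched on both strands of the 300-base windows, and matches of different motifs may overlap. Longer motifs with free positions are given by name alone. The ETS letters AGGAAGT were in 19 of the 112 windows of the strong distal regions (17.0%), against 11.1% of the 1463 windows in other distal regions, 11.04% of the 1123 windows in gene-end regions of percentile 95 or more, and 9.35% of all 32851 windows of the table. RUNX letters TGTGGTT were in 9.82%, against 4.99%, 3.65% and 5.27% in the same order. The NRF1 motif was in 15.2%, against 7.52%, 11.1% and 4.60%, and the CTCF motif in 6.25%, against 3.83%, 3.74% and 2.43%. These 4 motifs were thus more frequent in windows of the strong distal regions than in each of the 3 other sets. The shares rest on few windows (ETS 19, RUNX 11, NRF1 17 and CTCF 7 of 112), and the differences were not tested. SP/KLF letters GGGCGGG were in 36.6%, against 42.0%, 44.8% and 25.6%. NF-Y letters CCAAT were in 40.2%, against 31.99%, 58.1% and 37.4%, and ZNF143 letters ACTACAA in 6.25%, against 3.42%, 10.7% and 3.24%. T-box letters GGTGTGA were in 3 windows (2.68%), against 3.83%, 3.47% and 3.98%. The E-box CAGCTG was in 8.04%, against 16.1%, 12.5% and 16.3%. The heat shock element, built from inverted GAA units and the site to which HSF1 binds, was in 0 of 112 windows, against 0.273%, 0.267% and 0.603%. That says only that these letters are not in these windows. The ZEB E-box CAGGTG was in 16.1%, against 19.5%, 16.2% and 20.2%. AP-1 letters TGANTCA were in 7.14%, against 6.22%, 3.56% and 7.81%, and STAT letters TTCNNNGAA in 5.36%, against 6.97%, 7.21% and 8.30%. TCF/LEF letters CTTTGAT were in 1.79%, against 2.32%, 2.58% and 3.73%, and GATA letters AGATAAG in 1.79%, against 2.05%, 1.69% and 3.04%. YY1 letters AAGATGGC were in 1.79%, against 3.08%, 6.41% and 2.75%. The cyclic AMP response element TGACGTCA was in 0.893%, against 2.26%, 2.40% and 1.79%. The NF-kB motif was in 20.5%, against 26.7%, 22.97% and 20.7%, and the IRF motif in 1.79%, against 2.60%, 3.12% and 3.44%. Windows of several starts of a gene overlap, so the 112 windows are not independent. Of the 112, 94 lay wholly inside their region, and the rest included bases outside it. Their median G and C content was 58.7%, close to the 59.7% of the windows in other distal regions and above the 52.7% of all windows. The sequence of the 606 strong distal regions without a start was not analysed here.

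Most strong distal regions thus held no annotated start, and these lay farther from gene ends. The median distance to the nearest gene end was 13634 bp over all 699 regions (range 1004 to 49852 bp), 6920 bp for the 93 with a start and 14638 bp for the 606 without one. It was 11469 bp for the other distal regions and 12672 bp for those of percentile 75 to 95. Between 1 and 5 kb from a gene end lay 120 of the 699 (17.2%), against 25.4% of the other distal regions, and between 10 and 20 kb 213 (30.5%), against 23.5%. In bodies of protein-coding genes lay 397 (56.8%), of which 360 were in the body of the nearest gene. The other 302 lay between protein-coding genes, where some held lncRNA starts. The share in gene bodies was 61.9% of the other distal regions, 60.4% of those of percentile 75 to 95 and 82.8% of the 93 with a start.

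The strong distal regions stood apart from other open chromatin. No other region found in at least 2 lists lay within 10 kb of 297 of them (42.5%), against 19.6% of the other distal regions. The gap to the nearest such region had a median of 8679 bp, against 2912 bp. The share with no neighbour rose band by band, from 2.81% below percentile 25 through 17.95%, 21.2% and 29.7% to 42.5%. Only 12 of the 699 had a second strong distal region within 10 kb, and 72 had one within 50 kb. The closest pair was at the predicted gene 1700017B05Rik on chromosome 9, at 57272610 to 57273480 and 57278222 to 57278802, with 4741 bp between them. The nearest gene had a peak within 1 kb of one of its ends in all 8 lists for 463 of the 699 (66.2%), against 72.0% of the other distal regions. In the band from percentile 75 to 95 it was 67.6%, so this share is not particular to the strong distal regions.

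**Figure D2:**
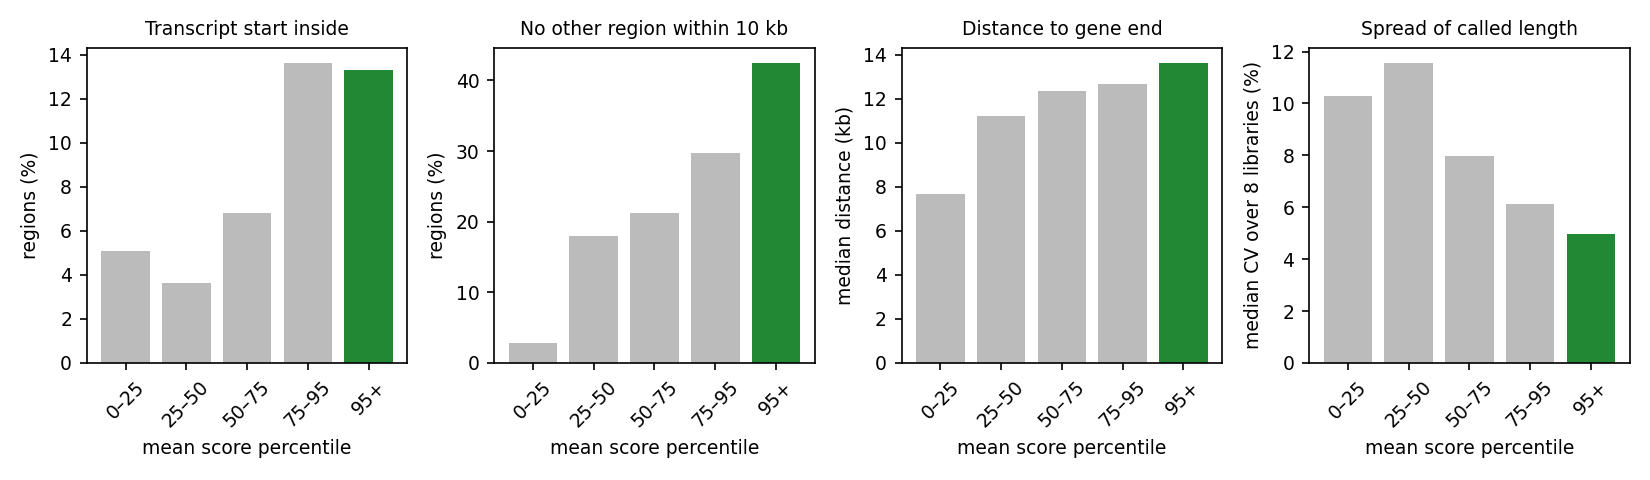
Regions in all 8 lists at 1 to 50 kb from a gene end, by mean score percentile (horizontal, grey bars for the bands below 95 and green for the 699 strong distal regions). The bars show the share with a transcript start, the share with no other region within 10 kb, the median distance to a gene end and the median coefficient of variation of called length over the 8 libraries. The share with no neighbour is highest in the green bar (42.5%), while the share with a start is level with the band from 75 to 95 (13.3% and 13.6%).

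Every autosome and the X chromosome held some of these regions. They made up from 3.06% (chromosome 6) to 5.36% (chromosome 16) of all distal regions in all 8 lists of an autosome, and 6.21% on the X chromosome (19 of 306). The 699 regions had 669 nearest genes, 641 of them with 1 region and 26 with 2. Only Utrn and Rap1a had 3. At Utrn, the gene of the cytoskeletal protein utrophin, the mean percentiles were 99.5, 97.1 and 96.2. At Rap1a, which encodes a small GTPase of integrin-mediated adhesion, they were 98.6, 97.4 and 96.4, and 2 of these regions lay between protein-coding genes. Those at 98.6 and 97.4 held starts of the lncRNA genes Gm5547 and Gm46838.

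The 12 regions of highest mean percentile had percentiles from 99.9 to 100 and none held an annotated start. The region at the top (chr13:91702129-91702786) lay in the body of Ssbp2, which encodes a single-stranded DNA-binding protein of LDB1 complexes, 3389 bp from a gene end. Its called length, the number of bases covered by peaks of a library, was 643, 610, 601 and 621 bp in WT (replicates 4, 5, 6 and 7) and 642, 609, 642 and 599 bp in MUT (replicates 26, 27, 28 and 29). The 2 genotypes overlapped fully, and its lowest percentile in any list was still 99.97. The next were in or near Trip11, a golgin gene (chr12:101897048-101897562), Lrfn3, a synaptic adhesion gene (chr7:30373489-30373989), and Actr3, which encodes the ARP3 subunit of the Arp2/3 actin nucleator (chr1:125419881-125420332). Dipk1b, Mta3, Kansl1, Fam161a, Klf12, Mrps27, Epcam and Hepacam2 followed. Mta3 encodes a subunit of the NuRD chromatin remodeller, Kansl1 a subunit of the NSL histone acetyltransferase complex and Mrps27 a protein of the mitochondrial ribosome. At Mrps27 the called length was 511, 501, 501 and 502 bp in WT and 502, 513, 502 and 506 bp in MUT, so the called length was within 501 to 513 bp in all 8 libraries. At Fam161a, a gene of cilia and centrosomes, it was 623, 652, 541 and 659 bp in WT and 572, 663, 700 and 503 bp in MUT, the widest scatter in MUT among the 12. At Epcam, an epithelial adhesion gene, WT replicate 6 had 623 bp and the other 7 libraries 432 to 477 bp.

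**Figure D3:**
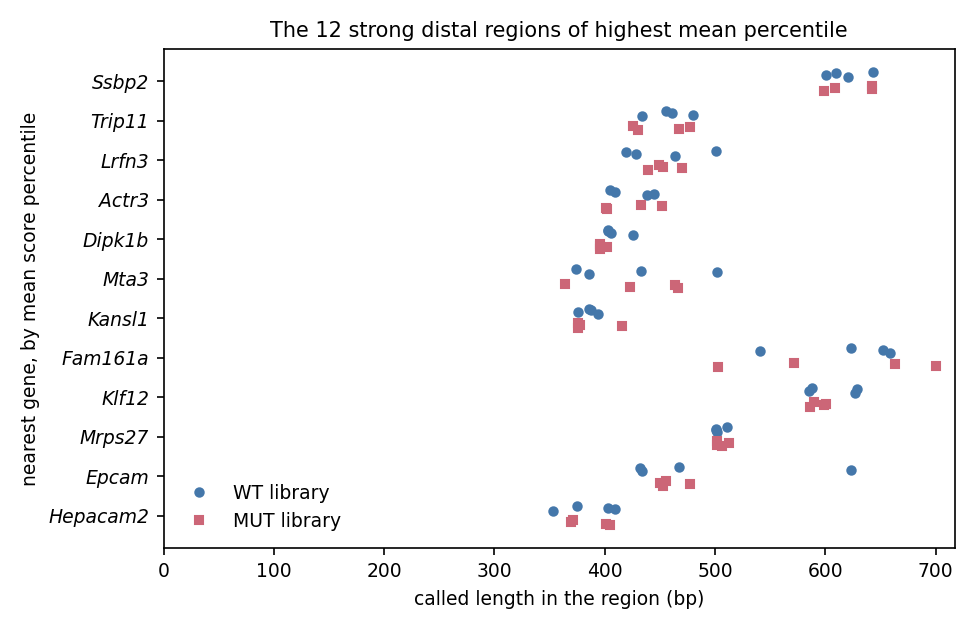
Called length in bp (horizontal, from 0) of the 12 strong distal regions of highest mean percentile, each named by its nearest gene (vertical), with 1 point per library (blue circles, 4 WT; red squares, 4 MUT). WT and MUT points overlap at 11 of the 12 regions and at Dipk1b they do not before centring (WT 403 to 426 bp, MUT 396 to 402 bp), though they do after it.

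Called lengths of the strong distal regions varied little between libraries. Over the 699, the median of the called length was 581 bp (middle 50% from 492 to 682 bp), against 419 bp in the other distal regions and 704 bp in the 1113 equally strong regions at gene ends. By band the median was 300 bp below percentile 25, 338 bp from 25 to 50, 465.5 bp from 50 to 75 and 590.5 bp from 75 to 95. The strong distal regions were thus not longer than the band just beneath them. Length and score are related, so this is a description and not a test. The longest were at Brd3 (1264 bp), Mia2 (1241 bp) and Skor1 (1156 bp), of which the first 2 held transcript starts. Among the shortest were those at Col19a1 (292 bp) and Far1 (346 bp). The coefficient of variation of called length over the 8 libraries had a median of 4.97%, against 8.91% in the other distal regions. By band it was 10.3% below percentile 25, 11.6% from 25 to 50, 7.96% from 50 to 75 and 6.11% from 75 to 95. The low spread is thus not particular to the strong distal regions. The stretch shared by all 8 libraries had a median of 515 bp. In 42 of the 699 (6.01%) at least 1 library had more than 1 peak, against 9.19% of the other distal regions.

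The lists differed in how they ranked these regions. Below percentile 95 in their own list were 128, 112, 76 and 121 of the 699 in WT and 68, 39, 45 and 57 in MUT. Every WT count was thus above every MUT count. The lists hold from 42695 to 49627 peaks, and percentiles ranked within lists of different lengths do not measure a change between genotypes. These percentiles also chose the regions, so the split is a description and its cause was not tested. The median score of the strong distal regions was between 25.4 and 28.2 and the median of the whole list between 8.85 and 10.1. Just inside the percentile bound were the regions at Steap3 (95.005), Atp6v1c1 (95.02) and Slc38a11 (95.02), and just outside those at Ube2h (94.99), Gm35315 (94.99) and Akap13 (94.98). Just beyond 1 kb lay the regions at Zfp41 (1004 bp), Zfp771 (1008 bp) and Lcn4 (1021 bp). Those at Oas3 (964 bp), Abi2 (931 bp) and Rasip1 (857 bp) fell just short of it. The farthest kept were at Lta4h (49852 bp), Klf12 (49702 bp) and Tmem26 (49638 bp), and the nearest beyond 50 kb at Armc2 (50089 bp), Tram1 (50437 bp) and Pcgf5 (50732 bp).

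The sorted cells carried open chromatin at NK genes. A peak within 1 kb of a gene end was present in all 8 lists for 11 of 12 NK markers, Ncr1, Klrb1c, Eomes, Tbx21 and Itga2 (CD49b) among them, and in 5 lists for Nfil3. The T cell genes Cd3e, Cd3d, Cd3g, Cd5 and Cd28 also had one in 8 of 8 lists, while Cd8a had none. Of 6 B cell markers 0 were in all 8 lists. Of the myeloid genes Csf1r, Lyz2 and Adgre1 had none, while Itgam, Cd14 and Spi1 had one in all 8. Of 6 basophil and mast cell genes 2 were in all 8 lists and Cpa3 and Ms4a2 in none, and of 6 erythroid and platelet genes 1 was in all 8 and Hbb-bs, Hba-a1, Gata1 and Pf4 in none. The part of other cells in the results was not tested.

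Strong distal regions near genes of NK biology were counted next. Of the 1519 distal regions in all 8 lists whose nearest gene was on any of 22 gene lists, 29 (1.91%) were strong, against 3.87% of all 18050 distal regions. The lists hold 506 matched genes, and 28 of these (5.53%) had a strong distal region, against 3.06% of all 21887 protein-coding genes. Any distal region in all 8 lists was nearest to 358 of the 506 genes, but to only 7397 of the 21887. The shares per gene do not allow for this, so they show no excess of strong regions near list genes. No strong distal region was nearest to the lists of HSF1 and its chaperone targets (0 of 16 distal regions), the unfolded protein and integrated stress response (0 of 28), apoptosis and survival (0 of 57), cell cycle (0 of 52), B cell markers (0 of 8) or erythroid and platelet markers (0 of 8).

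Among receptors, the activating receptor gene Ncr1, which encodes NKp46, had 1 strong distal region, the only one among 76 distal regions of the activating receptor list. It lay 13809 bp from the gene (chr7:4323189-4323906), at percentile 95.3. Its called length was 529, 553, 705 and 671 bp in WT and 655, 680, 718 and 683 bp in MUT, with 2 short WT libraries and the other 6 between 655 and 718 bp. Of the inhibitory receptors, 2 of 50 distal regions were strong. The region nearest to Pdcd1, which encodes PD-1, lay 39124 bp away (chr1:94091677-94092216, percentile 98.1) with 506 ± 20.6 bp in WT and 508 ± 17.6 bp in MUT (here and below ± is the SD with n = 4 mice per genotype). The region nearest to Tigit lay 33542 bp away (chr16:43698667-43699720, percentile 95.3) with 1020 ± 18.8 and 1028 ± 10.4 bp.

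Transcription factor genes of the NK lineage had 6 strong distal regions among 274, near 5 of 37 genes. Klf12, a Krüppel-like repressor gene, held 2 in its body (chr14:100235554-100236189 and 100260471-100261029). Their percentiles were 99.9 and 99.6, and their called lengths 607 ± 24.0 and 523 ± 12.2 bp in WT and 594 ± 7.16 and 531 ± 18.5 bp in MUT. Tox, a factor of early innate lymphoid development, had one 3864 bp from its end (chr4:6681668-6682489) with 627, 557, 614 and 661 bp in WT and 478, 724, 730 and 776 bp in MUT, so that MUT held both the shortest and the longest libraries. Irf2 had one at percentile 97.5, Tcf7, which encodes TCF-1, one at 96.4 (chr11:52299490-52300172) and Foxo1 one in its body at 95.2. Their called lengths were 625 ± 21.7, 660 ± 19.3 and 588 ± 12.8 bp in WT and 641 ± 26.4, 672 ± 10.3 and 598 ± 7.55 bp in MUT.

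Cytokine signalling genes had 4 among 140. The region nearest to Stat6, the signal transducer of the interleukin-4 receptor, was at percentile 99.1 (chr10:127631755-127632373) with 446 ± 67.4 bp in WT and 500 ± 58.7 bp in MUT. Il2ra and Il12rb2, receptor genes for interleukin-2 and interleukin-12, held theirs in the gene body (percentiles 97.8 and 96.6), and Ifnar2, a chain of the type I interferon receptor, had one 5295 bp away (96.8). Called length was 702 ± 39.2 and 652 ± 74.4 bp at Il2ra, 608 ± 24.8 and 634 ± 44.8 bp at Il12rb2, and 995 ± 49.3 and 936 ± 22.7 bp at Ifnar2 (WT and MUT). In the NF-kB list 3 of 72 distal regions were strong, in the body of Traf3 (98.3) and nearest to Tnfaip3 (95.9), the gene of the NF-kB inhibitor A20, and Nfkbia (95.1), the gene of IkB-alpha. Other single regions were nearest to Srgn, the proteoglycan gene of cytotoxic granules (96.3), to Itga1, which encodes CD49a (95.5), to the kinase gene Fyn (97.3), to Dusp1 (97.4) and Fosl2 (95.4) of the immediate early genes, to the RNA sensor gene Ddx58 (99.5), to the glucose transporter gene Slc2a3 (97.7) and to the remodeller gene Smarca4 (98.4). The shares of strong regions in the lists of these genes ran from 0.5% (proximal signalling, 1 of 200) to 3.70% (ILC1 and tissue-resident cell markers, 1 of 27). Genes listed as markers of other cells had 5: Cd28 (98.9), Cd247 (97.2), which encodes the zeta chain that NK cells also use, Xcr1 (96.0), Cebpb (95.7) and Hdc (99.6). These were 2 of 23 distal regions of the T cell list (8.70%) and 2 of 20 of the myeloid and dendritic cell list (10%). The basophil and mast cell list had 1 of 17 (5.88%). All 3 shares were above the 3.87% of all distal regions, on small counts.

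The genotypes were compared by called length, which the choice of regions did not use as a contrast. The test (limma with trend on log2 bp, centred per library) ran over all 34461 regions in all 8 lists. Of these, 17 (0.0493%) were longer and 10 (0.029%) shorter in MUT at an adjusted p under 0.05. Of the 699 strong distal regions, 0 passed in either direction (lowest limma adjusted p = 0.255). At an unadjusted limma p under 0.05 there were 31 (4.43%), against 9.69% of all regions tested. The centred lengths of the 4 MUT libraries all lay above those of the 4 WT libraries in 7 strong distal regions and all below in 13, together 20 (2.86%), against backgrounds of 2.11%, 3.88% and 5.99%. In bulk cells, a peak in fewer cells and a weaker peak per cell cannot be told apart. A p that misses the threshold does not show that the lengths were alike. In 568 of the 699 (81.3%) the fitted log2 difference was between -0.1 and 0.1, with a median SE of 0.058 for the 699, against 64.9% and 0.076 for all regions tested. The choice asked for a high mean percentile over the libraries of both genotypes. Its bearing on this narrower spread and on the lower shares was not tested.

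The median log2 difference over the strong distal regions was -0.024, beside -0.018 over all regions tested, and both were above 0 without centring (0.0039 and 0.0098). The centred difference had a median of -0.032 in the 93 with a transcript start and -0.023 in the 606 without. Within 50 kb of 17 strong distal regions (2.43%) lay a region called in all 4 MUT and no WT library, against 3.30% of the other distal regions. For regions called in all 4 WT and no MUT library the figures were 5 (0.715%) and 1.19%.

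**Figure D4:**
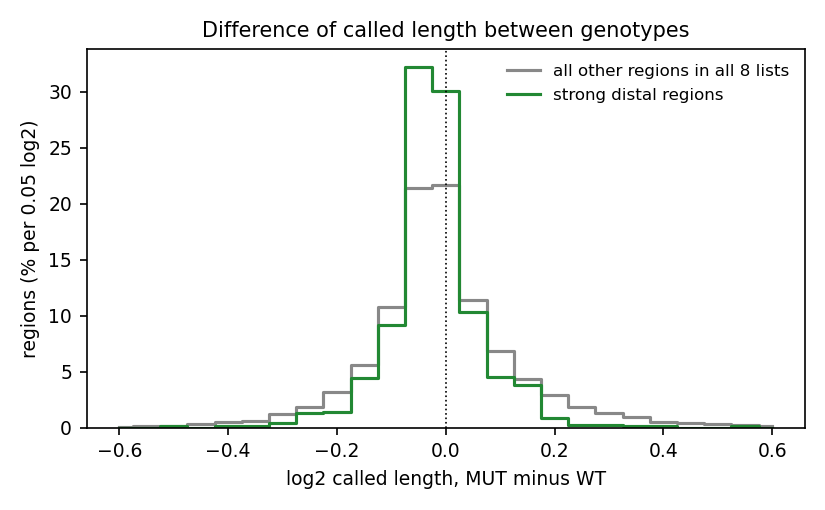
Distribution of the log2 difference of called length, MUT minus WT (horizontal, centred per library), for the 699 strong distal regions (green) and all other regions in all 8 lists (grey), as the percentage of regions per 0.05 (vertical). The green curve is the narrower one around 0, with 81.3% of its regions between -0.1 and 0.1.

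None of the regions with the lowest p passed, and they are given with that in mind. The region nearest to Nemp2, a nuclear envelope protein gene (chr1:52578026-52578964), had 539, 547, 628 and 461 bp in WT and 937, 789, 934 and 630 bp in MUT. The lowest MUT library stood just above the highest WT library (log2 0.56, SE 0.13, limma adjusted p = 0.255). Near Bahcc1, a gene of a chromatin protein with a BAH domain (chr11:120315813-120316902), the lengths were 725, 860, 873 and 841 bp in WT and 1008, 1066, 1075 and 888 bp in MUT (log2 0.26, SE 0.068, limma adjusted p = 0.293). Near Entpd1, which encodes the ectonucleotidase CD39 (chr19:40707964-40709010), they were 591, 635, 622 and 897 bp in WT and 973, 900, 894 and 824 bp in MUT, where WT replicate 7 stood with the MUT libraries (log2 0.38, SE 0.13, limma adjusted p = 0.420). Without that library the log2 difference was 0.52 (limma adjusted p = 0.0573). With the longest single peak of each library it was 0.15, and with equal numbers of peaks 0.021.

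In the other direction, the region near Snx5, a sorting nexin gene (chr2:144245195-144245906), had 648, 669, 651 and 522 bp in WT and 487, 504, 576 and 466 bp in MUT (log2 -0.32, SE 0.086, limma adjusted p = 0.307). Here WT replicate 7 lay within the range of MUT. Near Rfx2, a transcription factor gene of ciliated cells (chr17:56819544-56820265), the lengths were 691, 711, 652 and 713 bp in WT and 636, 630, 674 and 589 bp in MUT, which overlapped before centring and not after it (log2 -0.16, SE 0.049, limma adjusted p = 0.370). Near Pde7a, a cAMP phosphodiesterase gene (chr3:19318926-19319517), they were 592, 580, 481 and 407 bp in WT and 405, 407, 406 and 409 bp in MUT. The 4 MUT libraries were nearly identical and WT replicate 7 equalled them (log2 -0.35, SE 0.11, limma adjusted p = 0.386).

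**Figure D5:**
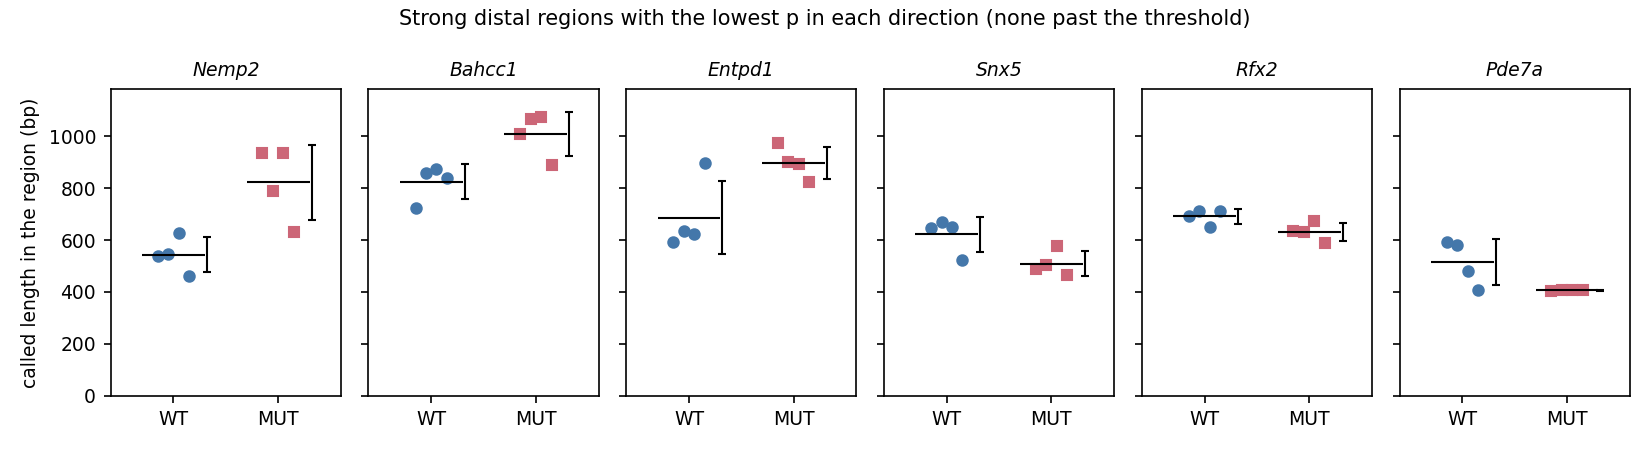
Called length in bp (vertical, from 0) at the 3 strong distal regions with the lowest p among those longer in MUT (Nemp2, Bahcc1, Entpd1) and the 3 among those shorter in MUT (Snx5, Rfx2, Pde7a). Points are libraries (4 WT, 4 MUT), horizontal lines means and error bars SD; the groups are separate at Nemp2 and Bahcc1 and overlap at the other 4.

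One microRNA gene lay in a strong distal region. The hairpin of Mir713 (chromosome 13, 62760739 to 62760846, plus strand) was inside the region nearest to Gm5141 (62760217 to 62761060). Its mature sequence in RefSeq is given with the seed, bases 2 to 8, in capitals.
mmu-miR-713: uGCACUGAaggcacacagc
Ends of other non-coding genes were found in 34 strong distal regions for lncRNA (4.86%, against 3.09% of the other distal regions) and in 5 for pseudogenes (0.715%, against 0.329%).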

How the data were processed

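ATAC-seq peak lists of 4 WT and 4 MUT mice were used, 1 list per library. The authors deposited for each peak a position and a score. The score's meaning was not stated, and the peak caller, threshold, read filters and any read shift were likewise not given in the sources used here. For the build, the submitters' processing notes name mm10 (GRCm38), and for tools DiffBind 3.0.12, DESeq2, Bowtie2 2.3.4.1 and Trimmomatic, with no order or role. The lists hold no read counts, so sequencing depth is unknown. The smallest peak is 200 bp and the largest 3680 bp.

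Scores were ranked within a list only. Genes came from a RefSeq table (GRCm38.p6, 21887 protein-coding genes), and starts and sequences from its 32851 promoter windows, which cover 27025 protein-coding and lncRNA genes. No genome was used, so the planned sequences and motif shares of whole regions were replaced by those of the windows. Distances run from the nearest edge of the region.

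Called length was tested with limma 3.58.1 (R 4.3.3, eBayes with trend) on log2 bp without a pseudocount, centred on each library's median, with Benjamini-Hochberg adjustment over all 34461 regions and a threshold of 0.05. The labels call each mouse a biological replicate. The code was tested on simulated data for 34461 regions, with 100 regions changed 1.2-fold and 100 changed 1.5-fold. It recovered 18 of the 1.2-fold and 62 of the 1.5-fold changes, and 5 other regions passed. Many changes of this size would thus be missed. Python 3.11.15 and scipy 1.17.1 were used.

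The regions, gene lists and tests were chosen with earlier results of these data known. Named are the 12 regions of highest percentile, the 3 of lowest p per direction, up to 6 genes per list, genes with 3 regions, the regions at the bounds, the longest and shortest, and the closest pair; 1 of the shortest is not reported here. The comparison of transcript starts, the genes named for one, the shown windows and the motifs NRF1, YY1, NF-Y, CRE and ZNF143 were chosen after values were seen. Of 522 entries in 22 lists, 515 matched the table, and some genes are on 2 lists.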

Additional observations from a re-analysis of the deposited data

Results flagged for a closer look

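A library whose gap to the nearest of the others of its genotype exceeded Dixon's critical value for 4 samples was looked for in 42 groups of 4 libraries, and 6 were found; chance alone gives about 1 in 20. WT replicate 7 had 897 bp of called length at Entpd1 (others 591 to 635 bp), 522 bp at Snx5 (others 648 to 669 bp) and 426 bp at Dipk1b (others 403 to 406 bp). MUT replicate 28 had 402 bp at Dipk1b (others 396 bp) and 416 bp at Kansl1 (others 376 to 378 bp). WT replicate 4 had 511 bp at Mrps27 (others 501 to 502 bp).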

How the results depend on the processing

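No strong distal region passed under any of the 18 alternatives of the length test (lowest limma adjusted p from 0.0573, without WT replicate 7, to 0.338). Over all regions tested, 17 longer and 10 shorter in MUT became 9 to 29 and 4 to 16 with 1 library left out. The number longer was 29 without WT replicate 5, 28 without WT replicate 6 or MUT replicate 29, and 9 without WT replicate 7; the number shorter was 4 without WT replicate 7, 6 when MUT replicate 28 was left out and 16 when MUT replicate 29 was. With regions in at least 2 lists and a pseudocount of 200 bp they were 340 and 128. The median log2 difference of the strong distal regions was 0.0039 without centring, 0.0026 when centred on regions of percentile 90 or more, and between -0.0381 and -0.0091 with 1 library left out; minus the median of all regions it was -0.0095 to -0.0022 in all of these settings. The cause of these shifts was not tested. With a percentile of 95 or more demanded in every list 392 regions were kept. With starts of protein-coding genes only, 10.3% held a start (5.00% of the others). Of 212 alternative values 199 stayed within their limits. Of the 212, 108 were for the 3 regions of lowest p in each direction, and all of these kept their direction. These regions were picked by p in the same data, so a kept direction was likely in advance and gives no support. A log2 difference of 0.021 at Entpd1, with equal numbers of peaks, also counted as kept. The alternatives for the motif windows were not run because no genome was used. No paired analysis was possible because the replicate numbers of WT (4 to 7) and MUT (26 to 29) share none. Unknown depth limits every statement on peaks that were not called.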
